A study of Mus musculus with 12 samples.

Results

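The 10 genes described here encode surface proteins and transcriptional regulators known from memory B cells. They were chosen by name, as the rows of the count table whose Entrez gene number belongs to Nt5e, Cd80, Pdcd1lg2, Cd86, Cd44, Cd38, Parm1, Hhex, Zbtb20 or Tle3. All 10 were among the 27179 genes of the table and all 10 passed the filter on low counts, which left 13592 genes tested.

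The libraries hold RNA from bone marrow B cells of mice, sorted as mature cells by flow cytometry (B220high, IgM+, CD93-), with 3 libraries in each of 4 groups and 12 in all. All mice had the C57BL/6 strain background. Old wild-type mice (WT) were 98, 99 and 100 weeks of age, and young wild-type mice were 9, 10 and 11 weeks. Apoptosis-resistant mice had the genotype Bak-/- BaxD/D and apoptosis-sensitive mice the genotype Bak-/- Baxfl/fl, both at 10 weeks, so both of these groups lacked the apoptosis effector BAK1 and only the resistant mice carried deleted Bax alleles as well. No source used here names the driver of the Bax deletion or says whether animals were pooled. The sort kept cells with surface IgM, so memory cells that had switched to other antibody classes were outside the gate.

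Total counts per library ran from 13474162 to 23539764, which sets the counting precision. The label check held for both targeted genes. Bax had 4.97 to 8.36 CPM in apoptosis-resistant and 55.7 to 100 CPM in apoptosis-sensitive libraries, where CPM is the usual depth-normalised count, scaled here for library composition. Bak1 had 6.17 to 14.4 CPM over the 6 Bak-/- libraries and 24.7 to 47.9 CPM over the 6 wild-type libraries. The B cell genes Ms4a1 and Cd79a had group means of 1170 to 1820 CPM, and the summed level of 11 B cell identity genes was 16300 to 23000 CPM in every library. The old and young libraries of replicate 1, collected on 24 March, stood apart from the other 10 on the first principal component, which held 31.9% of the variance.

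Memory B cells are antigen-experienced cells that persist and respond quickly when the antigen returns. In mice the surface proteins CD73, CD80 and PD-L2, the products of Nt5e, Cd80 and Pdcd1lg2, are used to divide them into subsets, and CD38 and CD44 help to tell them from germinal centre or naive cells. In the nucleus of mouse germinal centre B cells, the transcription factor HHEX and its partner, the corepressor TLE3, are known to favour the memory fate. Most of these genes are also read in other cells, since CD73, CD44 and CD38 occur on T cells and stromal cells and CD80 and CD86 on macrophages and dendritic cells.

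Among these genes Nt5e and Cd80 had the most alike levels over the libraries, and their promoter windows are shown for that reason. The windows are RefSeq sequences of build GRCm38.p6, from 250 bases before to 50 bases after a transcription start, and 9 of the 10 genes had one. Capitals mark matches, on either strand, to the GC box GGGCGG in Nt5e and to the TATA box TATAAA in Cd80. 
Nt5e, chr9:88327359-88327658, plus strand: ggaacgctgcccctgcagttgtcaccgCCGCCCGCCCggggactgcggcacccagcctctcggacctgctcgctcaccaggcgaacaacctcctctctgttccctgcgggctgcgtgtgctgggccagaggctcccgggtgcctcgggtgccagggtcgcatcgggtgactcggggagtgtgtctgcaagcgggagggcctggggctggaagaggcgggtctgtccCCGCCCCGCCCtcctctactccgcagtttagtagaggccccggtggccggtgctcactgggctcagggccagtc
Cd80, chr16:38458683-38458982, plus strand: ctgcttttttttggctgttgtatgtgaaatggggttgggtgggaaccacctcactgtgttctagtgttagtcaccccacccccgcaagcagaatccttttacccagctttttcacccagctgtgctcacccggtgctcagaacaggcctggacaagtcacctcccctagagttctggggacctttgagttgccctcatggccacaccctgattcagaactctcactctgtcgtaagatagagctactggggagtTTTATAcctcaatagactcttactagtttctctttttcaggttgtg
The Nt5e window held 4 GC boxes, in overlapping pairs, 23 CpG dinucleotides and 71% G or C bases. The Cd80 window held 0 GC boxes, 1 TATA box match on the reverse strand, 3 CpG dinucleotides and 49.7% G or C. That match, at bases 255 to 260, lay after the transcription start of the window and not before it. The Cd80 window also lay within the gene, which is listed from base 38457430, whereas the Nt5e window spanned the listed gene start, 88327609. Over all 32851 windows of this length, 35.7% held a GC box and 13.6% a TATA box, and the median window had 7 CpG dinucleotides and 52.7% G or C. The CCAAT box, searched as CCAAT, was in neither sequence and in 37.4% of all windows. Hhex had 75.7% G or C and 37 CpG dinucleotides, while Zbtb20 had 43.3% and 3, so the members' windows had no shared base composition.

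Compared per kilobase of exon, Cd38, Hhex and Tle3 were the 3 most abundant members in every group, and Parm1 and Zbtb20 the 2 least abundant. Exon lengths came from GENCODE M21, which may differ from the annotation the authors counted with. Cd38 had 112.8 ± 22.9 CPM per kilobase in old wild type, 84.5 ± 20.8 in young wild type, 95.3 ± 12.8 in apoptosis-resistant and 109 ± 9.69 in apoptosis-sensitive cells (SD, n = 3 each). Hhex was at 76.4 ± 20.8, 102 ± 23.6, 116 ± 5.85 and 101 ± 10 CPM per kilobase in the same groups. Nt5e was among the low members at 13.6 ± 6.51 CPM per kilobase in old wild type, 0.673 ± 0.276 in young wild type, 6.13 ± 4.84 in apoptosis-resistant and 1.02 ± 0.12 in apoptosis-sensitive cells.

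**Figure D1:**
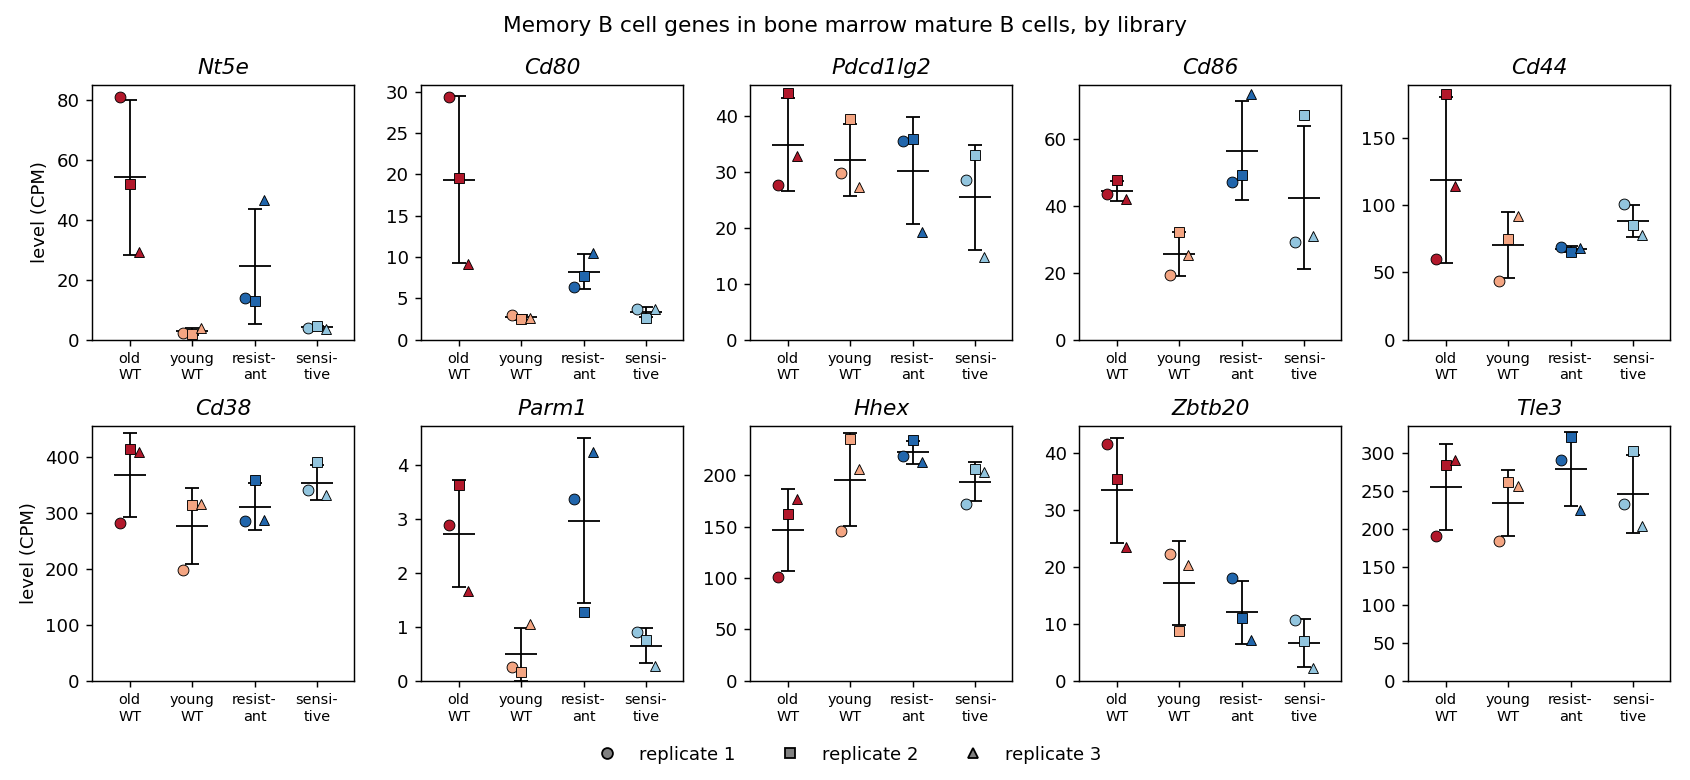
Level of each gene in CPM (vertical axes, each from 0) in old wild-type, young wild-type, apoptosis-resistant and apoptosis-sensitive libraries. Points are libraries, with a shape for each replicate number, the wide bar is the mean and the whiskers are the SD (n = 3). Nt5e and Cd80 were lowest in the young wild-type and apoptosis-sensitive groups, with no library above 4.59 and 3.72 CPM.

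Old against young wild type addresses age. Of the 10 genes, Nt5e and Cd80 rose with age and 0 fell, where 2.01% of all genes tested passed (1.7% rose and 0.309% fell). The median log2 fold change of the 10 was 0.78, against -0.03 over all genes, and 9 of 10 were above 0, as were 45.7% of all genes. In 5 of the 10 (Nt5e, Cd80, Cd86, Parm1 and Zbtb20) every old library was above every young one, which held for 9.16% of all genes, and in 0 every old library was below, which held for 6.96%. An unadjusted p under 0.05 was reached by 4 of 10 and by 11.6% of all genes. In this bulk RNA, more cells of a type and more RNA per cell cannot be told apart. When the collection date was fitted as a block, 4 rose (Nt5e, Cd80, Cd44 and Cd38) and Hhex fell, where 14.9% of all genes passed (7.89% rose and 7.03% fell).

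Nt5e (Entrez gene 23959, GRCm38.p6 chromosome 9, 88327609 to 88372089, plus strand) encodes CD73, the surface enzyme that turns AMP into adenosine. It had 1659, 1019 and 545 reads, or 81.2, 52.2 and 29.3 CPM, in libraries of old mice, against 26, 46 and 60 reads, or 2.14, 1.97 and 3.96 CPM, in those of young mice. The lowest old library was thus far above the highest young one, while the old libraries differed 2.77-fold among themselves. The log2 fold change was 4.34 ± 0.58 (adjusted p = 0.00514), or 20.2-fold with a 95% interval of 8.39 to 48.7. Nt5e passed in each of the 6 fits that left out 1 wild-type library (highest adjusted p = 0.0353) but not when the 6 wild-type libraries were fitted alone (0.0774).

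Cd80 (Entrez gene 12519, chromosome 16, 38457430 to 38495958, plus strand) encodes a costimulatory ligand that binds CD28 and CTLA-4 on T cells. It stood at 29.4, 19.6 and 9.14 CPM in old libraries, against 2.96, 2.48 and 2.57 CPM in young libraries. The young libraries lay within 1.19-fold of each other, and the old ones spread over 3.21-fold. Its log2 fold change was 2.86 ± 0.40 (adjusted p = 0.00563), or 7.25-fold with an interval of 3.97 to 13.3. The highest adjusted p without 1 library was 0.0408, and the fit of the 6 wild-type libraries alone gave 0.115.

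Pdcd1lg2 (Entrez gene 58205, chromosome 19, 29410919 to 29472927), the gene of the PD-1 ligand PD-L2, had 27.7, 44.1 and 32.9 CPM in old libraries and 29.7, 39.4 and 27.3 CPM in young ones. These groups overlapped over nearly their whole range, and the log2 fold change was 0.12 ± 0.33 (adjusted p = 0.975), with an interval from -0.60 to 0.83. Of the genes for the 3 subset proteins, 2 therefore rose and for the other a difference was not detectable at this spread. Cd86 (Entrez gene 12524, chromosome 16, 36568956 to 36666158) encodes the second costimulatory ligand of CD28. Its levels of 43.6, 47.8 and 42.0 CPM in old libraries lay above the 19.1, 32.2 and 25.3 CPM of young libraries without overlap. The log2 fold change of Cd86 was 0.80 ± 0.32 and did not pass (adjusted p = 0.335, and 0.16 with the date block). Per kilobase, Cd80 made up 31.6%, 21.9% and 13% of the sum of Cd80 and Cd86 in old libraries, against 9.58%, 5.03% and 6.51% in young ones.

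Cd44 (Entrez gene 12505, chromosome 2, 102811141 to 102901669), the hyaluronan receptor that rises on activated lymphocytes, had 59.6, 182 and 114 CPM in old libraries and 43.5, 75.0 and 91.7 CPM in young ones. The groups overlapped, since the old library of 24 March lay below 2 young libraries, but within each date the old library was higher. Here and below, the share of all genes with the same sign in all 3 date pairs was not counted. Its log2 fold change was 0.76 ± 0.35 (adjusted p = 0.439), and 0.69 ± 0.17 with the date block, where it passed (adjusted p = 0.0272). Cd38 (Entrez gene 12494, chromosome 5, 43868809 to 43912374), an enzyme that consumes NAD at the cell surface, had 282, 415 and 409 CPM in old and 198, 315 and 317 CPM in young libraries. Cd38 was likewise higher in all 3 date pairs, and its log2 fold change of 0.42 ± 0.23 (adjusted p = 0.583) became 0.43 ± 0.08 with the block (adjusted p = 0.00708). Parm1 (Entrez gene 231440, chromosome 5, 91517700 to 91624011), a mucin-like membrane protein, had the lowest mean CPM of the members in every group. It had 59, 71 and 31 reads in old libraries, against 3, 4 and 16 reads in young ones, which is 2.89, 3.63 and 1.67 CPM against 0.246, 0.171 and 1.06 CPM. The libraries did not overlap, but the log2 fold change of 2.48 ± 0.73 missed the threshold (adjusted p = 0.127, and 0.0506 with the date block). Without young replicate 3 it was 3.71 and passed (adjusted p = 0.0476), and the other 5 fits without 1 library gave 2.04 to 2.73. It also passed in DESeq2 (adjusted p = 0.0135).

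Among the regulators, Hhex (Entrez gene 15242, chromosome 19, 37434841 to 37440731) was the member with a log2 fold change below 0. It had 101, 162 and 177 CPM in old libraries and 146, 235 and 206 CPM in young ones. The groups overlapped, and within each date the old library was lower. The log2 fold change was -0.42 ± 0.23 (adjusted p = 0.588), and with the date block Hhex fell by 0.43 ± 0.10 on the log2 scale (adjusted p = 0.013). Tle3 (Entrez gene 21887, chromosome 9, 61372326 to 61418497), the Groucho family corepressor that works with HHEX, had 190, 284 and 291 CPM in old and 183, 262 and 256 CPM in young libraries. Its log2 fold change was 0.13 ± 0.24 (adjusted p = 0.959), with an interval from -0.40 to 0.65. Zbtb20 (Entrez gene 56490, chromosome 16, 42875689 to 43634392), a zinc finger repressor known in mice for a role in plasma cell longevity, had 41.6, 35.4 and 23.4 CPM in old libraries, against 22.3, 8.78 and 20.3 CPM in young ones. The lowest old library stood just above the highest young one, and the log2 fold change of 0.97 ± 0.53 did not pass (adjusted p = 0.569, and 0.0842 with the block).

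**Figure D2:**
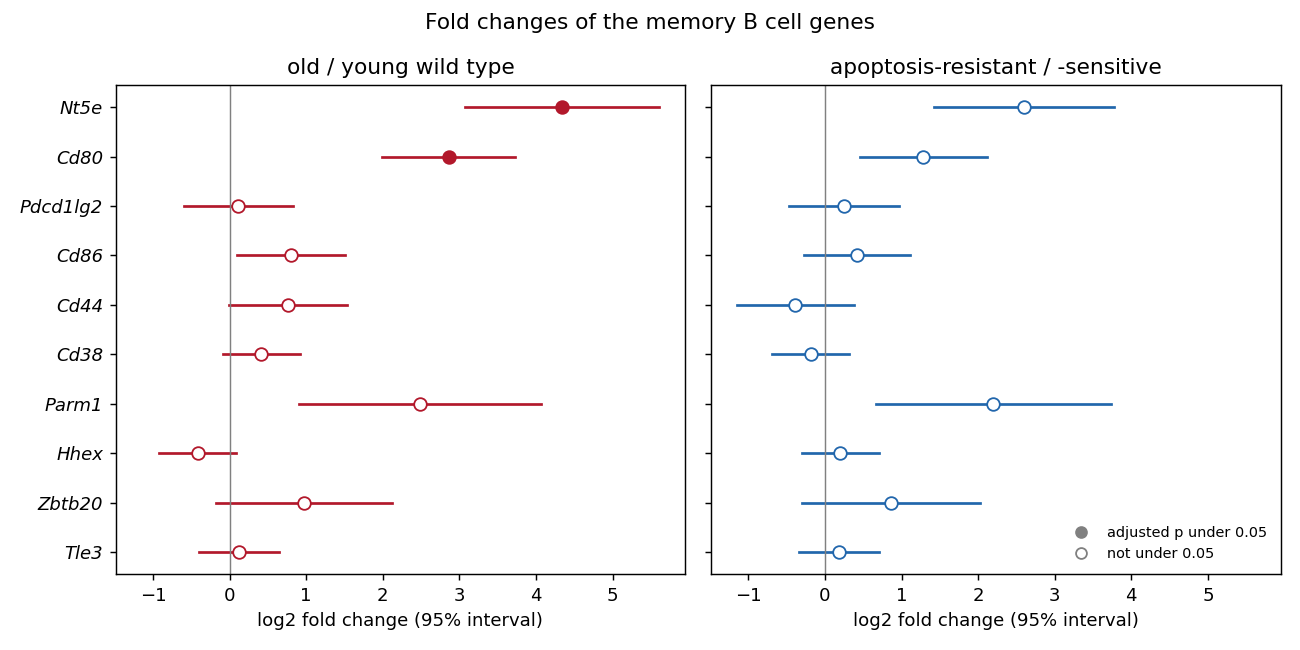
Log2 fold change (horizontal axes) of each gene with its 95% interval, for old over young wild type and for apoptosis-resistant over apoptosis-sensitive cells. Filled points passed an adjusted p of 0.05, which only Nt5e (4.34) and Cd80 (2.86) did, in the age comparison.

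Apoptosis-resistant against apoptosis-sensitive mice addresses the added loss of Bax where BAK1 is already missing. None of the 10 genes passed, where 0.0441% of all genes did. An unadjusted p under 0.05 was reached by Nt5e, Cd80 and Parm1, or 3 of 10, and by 4.9% of all genes, while DESeq2 called Nt5e (adjusted p = 0.000257). With the date block Cd80 rose (adjusted p = 0.0308), where 3.41% of all genes passed (1.43% rose and 1.97% fell). The median log2 fold change of the 10 was 0.33, against -0.02 over all genes, and 8 of 10 were above 0, as were 47.3% of all genes. Every resistant library was above every sensitive one for Nt5e, Cd80, Parm1 and Hhex, a pattern of 6.32% of all genes, and below for Cd44, a pattern of 8.31%.

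Nt5e had 13.8, 12.8 and 46.8 CPM in resistant libraries, against 3.95, 4.59 and 3.65 CPM in sensitive ones. Resistant replicate 3 was well above the other 2 resistant libraries, and all 3 were above every sensitive library. The log2 fold change was 2.60 ± 0.54 (adjusted p = 0.184), with an interval from 1.42 to 3.77. Without resistant replicate 3 it was 1.72, and over the 6 fits that left out 1 library it reached 2.91. That library also had the highest sum of 6 germinal centre genes, 151 CPM, against 33.0 and 30.2 CPM in the other resistant and 18.5 to 19.7 CPM in sensitive libraries. The part of germinal centre genes in the level of Nt5e was not tested.

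Cd80 had 6.35, 7.70 and 10.5 CPM in resistant libraries, against 3.72, 2.65 and 3.69 CPM in sensitive ones. Its log2 fold change was 1.29 ± 0.38 (adjusted p = 0.448), and 1.28 ± 0.28 with the date block. Parm1 had 49, 21 and 89 reads in resistant libraries, against 16, 13 and 6 reads in sensitive ones, and a log2 fold change of 2.20 ± 0.70 (adjusted p = 0.537). All 3 genes were higher in the resistant library of each date pair.

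Cd86 and Pdcd1lg2 overlapped between the genotypes, although Pdcd1lg2 was higher in the resistant library of all 3 date pairs, by 0.32, 0.12 and 0.37 on the log2 scale. Cd86 had 47.0, 49.1 and 73.4 CPM in resistant libraries and 29.2, 67.0 and 30.8 CPM in sensitive ones, where replicate 2 lay above 2 of the resistant libraries. Pdcd1lg2 had 35.6, 35.9 and 19.2 CPM in resistant and 28.5, 32.9 and 14.8 CPM in sensitive libraries. In both groups replicate 3, collected on 7 May, was lowest for Pdcd1lg2. The log2 fold changes were 0.42 ± 0.32 for Cd86 and 0.25 ± 0.33 for Pdcd1lg2. Cd80 was 8.48% to 9.71% of the Cd80 and Cd86 sum per kilobase in resistant libraries, against 2.64% to 8.03% in sensitive ones.

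Cd44 was the member without overlap in the other direction. It had 69.0, 64.8 and 68.0 CPM in resistant libraries, against 101, 85.0 and 78.0 CPM in sensitive ones, with a log2 fold change of -0.39 ± 0.35 (adjusted p = 1, and 0.284 with the date block). Cd38 had 287, 360 and 288 CPM in resistant and 342, 391 and 333 CPM in sensitive libraries and was lower in the resistant library of each date, with a log2 fold change of -0.19 ± 0.23 and an interval from -0.69 to 0.31. Hhex had 219, 235 and 213 CPM in resistant and 172, 206 and 204 CPM in sensitive libraries. Its groups came close without overlap, and the log2 fold change was 0.20 ± 0.23 (adjusted p = 1). For Tle3 the values were 290, 321 and 225 CPM in resistant and 232, 303 and 204 CPM in sensitive libraries, with a log2 fold change of 0.18 ± 0.24. Zbtb20 had 18, 11.0 and 7.12 CPM in resistant and 10.7, 6.94 and 2.20 CPM in sensitive libraries, and a log2 fold change of 0.87 ± 0.54 (adjusted p = 1). Tle3 and Zbtb20 were higher in the resistant library of all 3 date pairs.

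**Figure D3:**
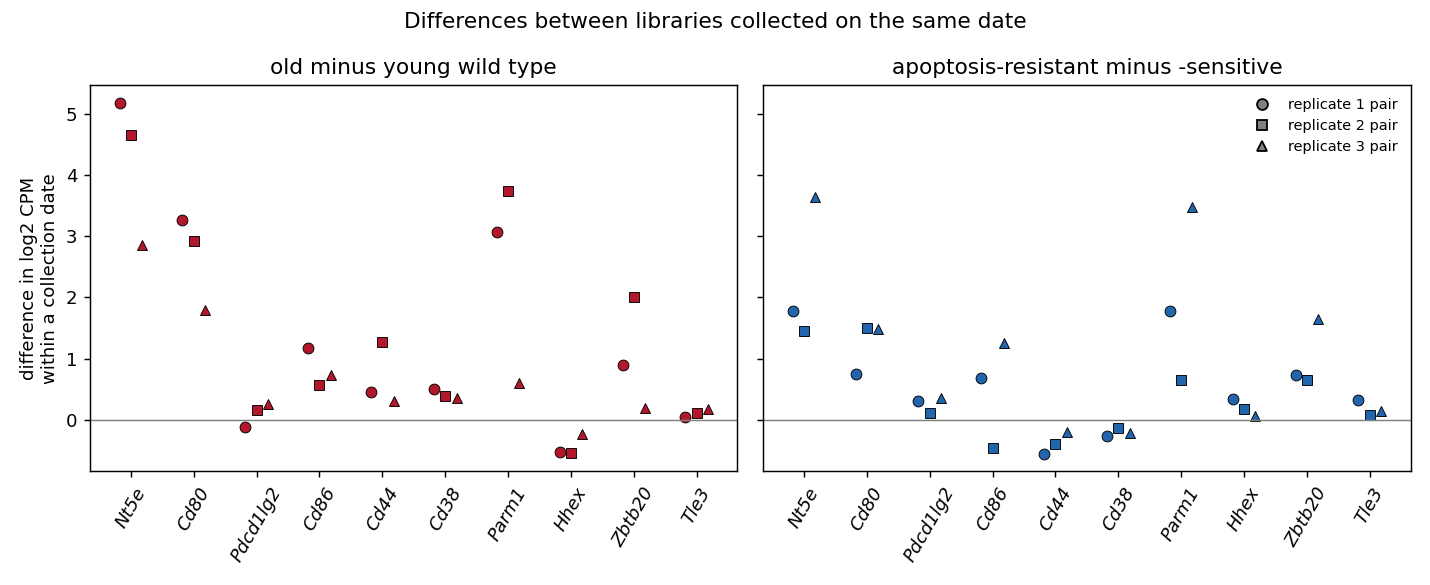
Difference in log2 CPM between libraries collected on the same date (vertical axis), old minus young wild type on the left and apoptosis-resistant minus apoptosis-sensitive on the right, with 1 point for each of the 3 date pairs. Nt5e ran from 2.85 to 5.18 with age and from 1.46 to 3.64 between genotypes, while Cd44 and Cd38 were above 0 in every pair on the left and below 0 in every pair on the right. The share of all genes with the same sign in all 3 pairs was not counted.

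The difference between the age effect and the genotype effect was tested in the same model, and these effects share no library. None of the 10 genes passed, where 0.25% of all genes did, and 3 of 10 (Nt5e, Cd80 and Cd44) had an unadjusted p under 0.05, as did 6.88% of all genes. The difference was 1.74 ± 0.74 on the log2 scale for Nt5e (adjusted p = 0.653), 1.57 ± 0.54 for Cd80 (0.41) and 1.15 ± 0.50 for Cd44 (0.673). For Nt5e it was 2.60 without resistant replicate 3 (adjusted p = 0.136), and over the 12 fits that left out 1 library it ran down to 1.32, without old replicate 1. With the date block 4 of 10 passed, where 7.03% of all genes did (3.51% with a positive and 3.52% with a negative difference). Cd80 (1.45 ± 0.39, adjusted p = 0.0497), Cd44 (1.07 ± 0.24, 0.0322) and Cd38 (0.62 ± 0.12, 0.0139) had the larger value for age, and Hhex (-0.63 ± 0.13, 0.0204) the larger value for genotype. The difference for Parm1 was 0.29 ± 0.98, with an interval from -1.85 to 2.42, so a difference of either sign was not detectable.

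Apoptosis-sensitive cells were set against young wild type for context. These groups shared no collection date, so genotype and date cannot be told apart, and this comparison shares the young libraries with the age comparison. None of the 10 genes passed, where 0% of all genes did, and 2.73% of all genes and 2 of 10 members (Cd86 and Zbtb20) had an unadjusted p under 0.05. Zbtb20 had the lowest log2 fold change, -1.37 ± 0.54 (adjusted p = 0.824), and Cd86 had 0.73 ± 0.32 (0.824), which was 0.22 without sensitive replicate 2. Nt5e had 0.60 ± 0.54 and Cd80 0.33 ± 0.39. Cd38 was the only member whose libraries did not overlap, at 333 to 391 CPM in sensitive against 198 to 317 CPM in young libraries, where 4.57% of all genes were higher without overlap.

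The order of the 4 group means differed between members. For Nt5e and Cd80 it was old wild type, apoptosis-resistant, apoptosis-sensitive and young wild type, with no overlap of libraries between resistant and sensitive and overlap between the other neighbours. Parm1 had the resistant mean above the old one, and again a gap between old and sensitive libraries. For Zbtb20 the order was old, young, resistant and sensitive, with a gap between old and young. In the other 6 members all neighbouring groups overlapped, and the highest mean was 1.19 times (Tle3) to 2.21 times (Cd86) the lowest, against 20.2 times for Nt5e and 7.24 times for Cd80.

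Over the 12 libraries the log2 CPM of Nt5e had a Pearson correlation of 0.957 with Cd80 and 0.89 with Parm1, and that of Cd44 one of 0.82 with Cd38. The lowest was -0.614, between Hhex and Zbtb20. These values describe libraries that share groups and dates. Of 11001 genes searched, the 3 most like Nt5e were Trerf1 (0.973), Fas (0.959) and Cd80. Those most like Cd80 were Snhg18 (0.957), Nt5e and Sowahc (0.949), and Parm1 was most like Trerf1 (0.907). The genes nearest to the others were Pml for Pdcd1lg2 (0.962), Btnl1 for Cd86 (0.891), Ext1 for Cd44 (0.967), Vopp1 for Cd38 (0.935), Galnt10 for Hhex (0.958), Myo5a for Zbtb20 (0.966) and Mbnl1 for Tle3 (0.939). Next for Cd44 came Cdh5 (0.959), which is among the stromal and endothelial markers read below, and Zfp703 (0.945).

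**Figure D4:**
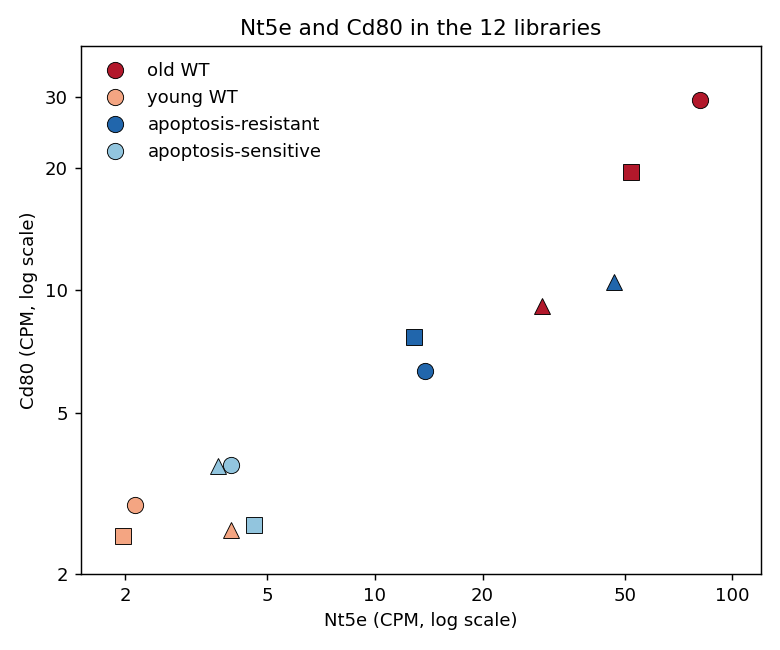
Nt5e (horizontal) against Cd80 (vertical) in CPM, both on log axes, with 1 point per library coloured by group and circles, squares and triangles for replicates 1, 2 and 3. The 6 young wild-type and apoptosis-sensitive libraries lie at 2.48 to 3.72 CPM of Cd80, and the old and apoptosis-resistant libraries at 6.35 to 29.4 CPM.

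Other genes known from memory B cells and the pathways around these proteins were read from the same fit. Of 20 other memory B cell genes 4 rose with age and 0 fell, with a median log2 fold change of 0.36. These were Fcrl5, an Fc receptor-like protein (1.84 ± 0.17, adjusted p = 0.001), the tyrosine kinase-like receptor gene Ryk (2.20 ± 0.50, 0.048), the integrin gene Itgb1 (1.68 ± 0.38, 0.0488) and Tbx21, the gene of T-bet (2.79 ± 0.64, 0.0495, and 0.0697 with the date block). With the block 5 rose and 3 fell, among them Bcl6, the germinal centre repressor (adjusted p = 0.00106). Without the block Bcl6 had -0.93 ± 0.27 and did not pass (adjusted p = 0.13). Between genotypes 0 of 20 passed, and with the block 0 rose and 2 fell, which were Bcl2, the survival gene (0.00373), and Fcrl5 (0.0316).

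In the adenosine pathway around CD73, 0 of 13 genes tested passed with age and the median was 0.00. With the block 3 rose, which were Entpd1, the gene of the AMP-forming enzyme CD39 (adjusted p = 0.000623), the adenosine receptor gene Adora2a (0.0132) and Enpp1 (0.0332), and the nucleoside phosphorylase gene Pnp fell (0.00375). Between genotypes 0 of 13 passed, and 1 rose and 2 fell with the block. Of 12 other B7 ligands and counter-receptors 0 passed in either comparison. With the block 3 rose with age and 0 fell. These were Ctla4 (0.0027) and Pdcd1 (0.0182), receptors of T cells for CD80 and CD86 and for PD-L2, and Rgmb, another PD-L2 binding partner (0.00533). T cell markers rose beside them, and their part was not tested. Cd274, the gene of PD-L1, had 64.6 ± 3.42 CPM in old and 59.9 ± 6.94 CPM in young cells (SD, n = 3 each).

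No gene passed in either comparison among 7 NAD genes around CD38, 8 hyaluronan genes around CD44 and 5 TLE family genes, whose medians with age were -0.25, -0.26 and -0.07. The block called 2 NAD genes as higher and 1 as lower with age, 1 hyaluronan gene as lower and 0 of the TLE family. Of 8 other BTB zinc finger genes Zbtb32 rose with age (2.64 ± 0.43, adjusted p = 0.0109), at 73.7 ± 41.4 CPM in old and 11.9 ± 6.29 CPM in young cells, and the block called 2 as higher and 2 as lower. Between genotypes the block called 1 NAD and 1 hyaluronan gene as lower and 1 BTB zinc finger gene as higher.

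Markers of other cells moved with age beside Nt5e and Cd80. Of 10 T cell markers 3 rose (Cd3g, Trac and Tcf7), of 2 NK cell markers Ncr1, of 9 monocyte and macrophage markers Adgre1, of 7 stromal and endothelial markers Cxcl12 and of 6 plasmacytoid dendritic cell markers Ccr9, and 0 fell in these lists. With the date block 8 of 10 T cell, 2 of 2 NK cell, 6 of 9 monocyte and macrophage, 5 of 7 stromal and endothelial and 2 of 6 plasmacytoid dendritic cell markers rose, and 0 fell. The median log2 fold changes of the first 4 lists were 2.70, 3.53, 1.41 and 3.13, all above that of the 10 members (0.78), and that of the plasmacytoid dendritic cell list was 0.06. T cell markers summed to 24.9 to 30.7 CPM in old and 3.13 to 7.56 CPM in young libraries, and NK cell markers to 2.30 to 3.72 and 0.257 to 0.791 CPM. Monocyte and macrophage markers summed to 95.2 to 278 CPM in old and 33.5 to 175 CPM in young libraries, stromal and endothelial markers to 207 to 459 and 211 to 348 CPM, and plasmacytoid dendritic cell markers to 782 to 1330 and 782 to 1290 CPM. No marker of these lists was at 0 in every library of a group. The stromal and endothelial sum was mostly Pecam1, which averaged 251 ± 62.2 CPM in old and 274 ± 68.1 CPM in young cells (SD, n = 3 each). The plasmacytoid dendritic cell sum was mostly Irf8, Ly6d and Tcf4, which averaged 491, 341 and 284 CPM in old cells. In young cells these genes averaged 476, 408 and 210 CPM. Siglech, in the same list, averaged 1.71 CPM in old and 1.76 CPM in young cells. The stromal chemokine gene Cxcl12 averaged 61.8 ± 48.2 CPM in old and 4.45 ± 4.37 CPM in young cells, and Lepr, the leptin receptor gene of marrow stroma, 5.48 ± 4.90 and 0.197 ± 0.238 CPM (adjusted p = 0.1, and 0.00538 with the block). The part of RNA from T cells, NK cells, macrophages and stromal cells in the levels of Nt5e, Cd80, Cd44 and the other members was not tested.

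Of 8 immature B cell genes Cd93 and Sox4 fell with age and 0 rose, with a summed level of 32.0 to 64.7 CPM in old against 73.8 to 148 CPM in young libraries. Fas rose with age among 6 germinal centre genes (2.15 ± 0.44, adjusted p = 0.0318), whose sum was 25.2 to 61.3 CPM in old and 14.3 to 22.4 CPM in young libraries, highest in the old library with the highest Nt5e and Cd80. Rgs13, in the same list, had -2.33 ± 0.59 with age (adjusted p = 0.0709). With the date block Rgs13 fell (adjusted p = 0.00251) and Fas rose (0.000965). No marker of 7 plasma cell, 8 granulocyte, 5 erythroid and 1 megakaryocyte genes tested, and none of the 11 B cell identity genes, passed with age. The B cell identity genes had a median log2 fold change of -0.245 with age, and 1 of 11 was above 0. With the date block Fcer2a (adjusted p = 0.00443) and Cr2 (0.0451) fell among them, and 0 rose. Between apoptosis-resistant and apoptosis-sensitive cells no marker passed in any of these lists. With the date block, the fit in which Cd80 rose, Fas (adjusted p = 0.0359), Tcf7 (0.0308) and the macrophage receptor gene Csf1r (0.0165) also rose, and Cd93 (0.00851) and Ly6d (0.0197) fell. Tcf7 was 1 of 10 T cell markers and Csf1r 1 of 9 monocyte and macrophage markers, and no other marker of these 2 lists passed. The monocyte and macrophage list had a median log2 fold change of -0.05 between genotypes, with 4 of 9 above 0. All 6 germinal centre genes had a log2 fold change above 0 between genotypes, with a median of 2.11. T cell markers summed to 10.8 to 15.7 CPM in resistant and 4.82 to 10.1 CPM in sensitive libraries, and granulocyte markers to 29.3 to 68.9 and 77.7 to 738 CPM. Within the T cell sum, Tcf7 averaged 6.6 CPM in resistant and 1.93 CPM in sensitive cells, and Trac 0.711 and 0.697 CPM. The 10 T cell markers had a median log2 fold change of 0.19 between genotypes, with 7 above 0.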

How the data were processed

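RNA of sorted bone marrow B cells was measured in 12 libraries. The deposited values were whole-number read counts per gene, in 1 table with a column per sample. Subread, featureCounts and build mm10 are named, per the submitters' processing notes. Their versions, the annotation, the strand setting and any filters are not given in the sources used here, so reads of overlapping or antisense genes cannot be told apart. Polyadenylated RNA was used, with the Illumina TruSeq v2 guide, per the labels' protocols.

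Groups and replicate numbers came from the sample titles. Symbols and coordinates came from RefSeq GRCm38.p6, which matched 25275 of 27179 genes. Counts were scaled by TMM and fitted over all 12 libraries by group with the robust quasi-likelihood test of edgeR 4.0.16 (R 4.3.3, limma 3.58.1), after filterByExpr with a minimum of 10 reads. P values were adjusted by Benjamini-Hochberg over 13592 genes and called under 0.05. Any adjusted p given with no tool is edgeR's. Log2 fold changes are given ± SE and levels as CPM. The pipeline was tested on simulated data. All 10 members were named. From each other list up to 4 genes that passed were named, plus genes called with the date block, which were chosen after their values were seen. The nearest genes were those with a mean of at least 1 CPM, a symbol, and the highest Pearson correlation of log2 CPM (prior count 2).

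The members, and the 19 other lists with them, were chosen with earlier results of these data known. Of the 181 list entries 3 matched no row, of which 2 are older names of genes already in the same lists, and some list members are not reported here by name. Replicate numbers within wild type and within Bak-/- mice mark a shared collection date in the labels, so they pair the samples. Deviations of same-date libraries from their group means correlated at 0.512 to 0.745 in wild type and 0.284 to 0.487 in Bak-/- libraries. The date block left 4 residual degrees of freedom, against 8 without it. The series design calls the 3 libraries of a group biological replicates. Alternatives were DESeq2 1.42.0, its size factors in edgeR, no filter, fits of the compared groups only, without immunoglobulin genes, without the 24 March libraries and without each library in turn. The labels of that date give 2006 as the year and the others 2016. Figures were drawn with matplotlib 3.10.9 in Python 3.11.15.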

Additional observations from a re-analysis of the deposited data

How the results depend on the processing

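With the collection date as a replicate block, 5 of the 10 members passed with age, 1 between genotypes and 4 for the difference of effects, and 2028, 463 and 955 of all genes did. In DESeq2 1 member passed between genotypes, and 746 genes passed with age, 127 between genotypes, 15 between sensitive and young cells and 247 for the difference. With only the libraries compared, 0 members and 1 gene passed with age, with fewer residual degrees of freedom. Without a filter 11 genes passed between genotypes and 3 between sensitive and young cells. Without both 24 March libraries the counts were 31, 3 and 75 for genotype, sensitive against young, and the difference, and Nt5e and Cd80 still passed with age.

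Leaving out 1 library at a time gave 2 to 3 members with age and 0 in the other comparisons. For all genes it gave 75 to 238 with age (75 without young replicate 2, 86 without old replicate 2, 160 without old replicate 3, 165 without young replicate 1, and 148 higher with 30 lower without young replicate 3), 0 to 5 between genotypes (0 without sensitive replicate 1 or resistant replicate 3), 0 to 1 between sensitive and young cells, and 2 to 37 for the difference. The sign of some log2 fold changes near 0 turned, none of which had passed. These were Hhex between sensitive and young cells without immunoglobulin genes (0.000995), and Tle3 in the same comparison (-0.0553) and Parm1 for the difference (-0.0282) without the 24 March libraries. When single libraries were left out, Pdcd1lg2 (-0.0752 to 0.29) and Tle3 (-0.00346 to 0.30) spanned 0 with age, Pdcd1lg2 (-0.0134 to 0.50) between genotypes, and Hhex (-0.16 to 0.13), Tle3 (-0.11 to 0.20) and Parm1 (-0.0581 to 1.65) between sensitive and young cells. For the difference of effects, Pdcd1lg2 (-0.39 to 0.12), Cd86 (-0.12 to 0.60), Parm1 (-0.17 to 1.49), Zbtb20 (-0.45 to 0.51) and Tle3 (-0.23 to 0.11) did. The causes were not tested. Over all alternatives, 519 of the members' fold changes kept their sign and their side of the threshold, 28 turned sign, 11 newly passed and 2 no longer passed. The block could not be fitted for sensitive against young cells, which share no date. The 3 to 16 reads of Parm1 in young libraries limit its precision.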
